A study of Homo sapiens with 6 samples.

Results

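The nuclear genes of respiratory complexes II, III, IV and V were followed in 786-O, a long-established cell line derived from a clear cell carcinoma of the kidney that lacks functional VHL. The 54 genes were taken by symbol from a list of subunits and assembly factors, and each matched exactly 1 of the 61860 rows of the count table. They comprise 8 genes of complex II, 10 of complex III (with cytochrome c, the carrier between complexes III and IV, counted here), 20 of complex IV and 16 of complex V. All 54 passed the filter on low counts, with at least 631 counts in every library. Total RNA was depleted of ribosomal RNA before sequencing. The control group held 3 libraries of cells stably expressing a control short hairpin RNA (shRNA), and the knockdown group held 3 libraries of cells stably expressing an shRNA against METTL3, the methyltransferase that writes N6-methyladenosine on mRNA. The labels do not say whether either line was 1 clone or a pool, or whether replicate libraries were grown separately. The p-values therefore reflect only how far these 6 libraries scatter, and that scatter may be technical.

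Complex II, succinate dehydrogenase, passes electrons from succinate to coenzyme Q and is also an enzyme of the citric acid cycle. Complex III hands the electrons from coenzyme Q to cytochrome c, complex IV (cytochrome oxidase) hands them to oxygen, and complex V (ATP synthase) uses the proton gradient that the chain builds to make ATP. Complex II is built from nuclear genes alone, whereas the other 3 combine nuclear subunits with proteins made from the mitochondrial genome, and germline loss of SDH subunits is a known cause of renal cancer.

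METTL3 was lower in all 3 knockdown libraries (11.3, 9.84 and 11.4 CPM in A, B and C) than in the controls (37.2, 38.1 and 37.6 CPM), a fall of 71.2%. CPM is a count scaled to its library's total after TMM adjustment. The library totals ran from 100534896 to 103624456 counts. The renal and epithelial markers PAX8, PAX2, KRT8, KRT18, VIM and CDH2 were all expressed, at 38.5 CPM or more in both group means. Of these, VIM, which encodes the mesenchymal filament vimentin, rose from 1461 to 2960 CPM (1.02, edgeR adjusted p = 0.000374) and PAX8 from 142 to 177 CPM (0.32, edgeR adjusted p = 0.0116), and the part of either shift in the results below was not tested. Of 6 markers of other cell types, PTPRC, CD3E, PECAM1 and VWF never exceeded 5 counts and ALB never 173. The summed level of the 6 ran from 50.6 to 59.1 CPM in the controls and from 88.5 to 115 CPM in the knockdown libraries, nearly all of it from CD68, a lysosomal protein that many cell types express, and its part in the results below was not tested.

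Transcripts of complexes II to V were mostly lower or not distinguishable from control after METTL3 knockdown. Of the 54 genes, 18 fell, 2 rose and 34 did not pass the test (edgeR quasi-likelihood fit over 18740 genes, with calls at a Benjamini-Hochberg adjusted p under 0.05). The 18 that fell are 33.3% of the members, where 16.9% of all tested genes fell. The 2 that rose are 3.7%, where 16.5% of all tested genes rose. In either direction 37.0% of the members and 33.5% of all tested genes were called. Every member had a control mean of at least 6.66 CPM, whereas the tested genes include many at lower levels. In a fit of the 13810 genes with at least 1 CPM in 3 libraries, 5673 were called and 2840 fell. There too 18 members fell and 2 rose. The median log2 fold change (knockdown over control) was −0.16 for the members and −0.0030 for all tested genes, and 45 of the 54 values were negative. The size of the falls was modest, from −0.24 to −0.82 on the log2 scale, with a median of −0.34 among the genes that fell. In bulk libraries, fewer cells with a transcript and less of it per cell cannot be told apart.

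**Figure D1:**
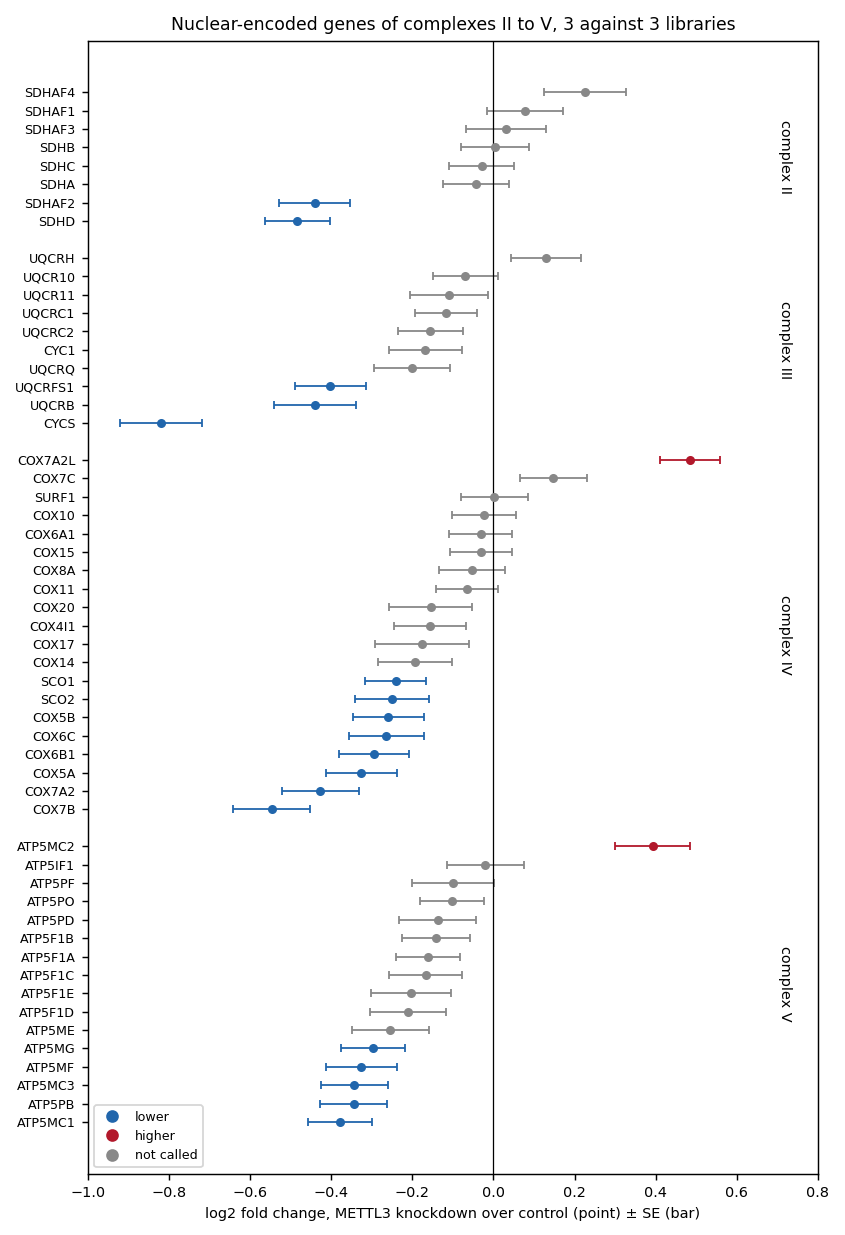
Log2 fold change of each of the 54 genes, METTL3 knockdown over control (3 libraries each), with its standard error as a bar, grouped by complex and sorted within it. Blue points fell, red points rose and grey points did not pass the edgeR test at an adjusted p under 0.05. CYCS lies farthest to the left at −0.82, and COX7A2L (0.48) and ATP5MC2 (0.39) are the points that rose.

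The groups did not overlap, all 3 knockdown libraries lying above or below all 3 controls, for 22 of the 54 genes (40.7%, against 47.4% of all tested genes). These include all 20 called genes together with CYC1 and ATP5F1B, which did not pass. The knockdown libraries were not equal in this respect. Relative to the control mean, the median member stood at −0.05 on the log2 scale in knockdown library A, −0.26 in B and −0.15 in C, while the median of all tested genes stayed between −0.01 and 0.0018 in all 6 libraries. Library B was the lowest of the 6 for 39 members, among them 17 of the 18 that fell. The part of library B in the group difference was not tested, because a fit without it also has fewer knockdown libraries. In that fit 10 of the 18 stayed past the threshold and the median of the members was −0.10. Over all genes, 1959 fell in that fit, compared with 3171 with all libraries, and the median of all tested genes stayed at −0.0032. These totals do not show which genes lost a call. The members that lost the call there were COX5A, COX5B, COX6B1, COX6C, SCO1, SCO2, ATP5MF and ATP5MG (edgeR adjusted p from 0.0627 to 0.195).

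**Figure D2:**
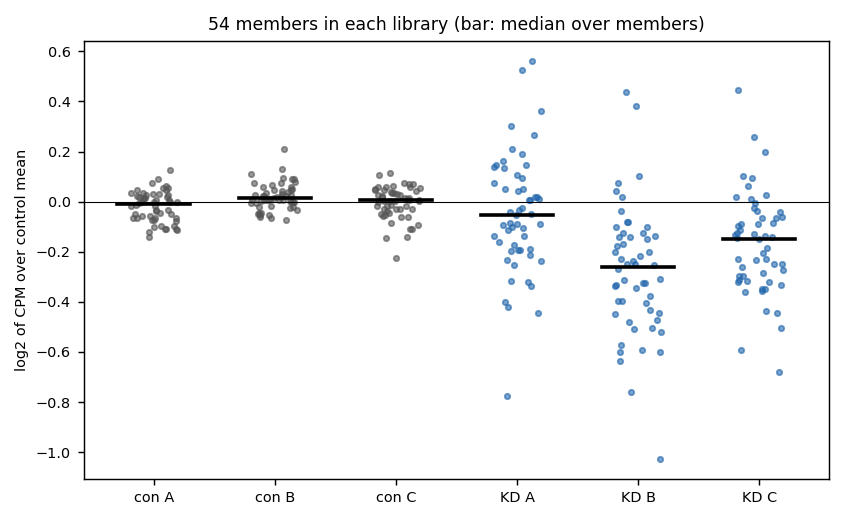
Each point is 1 of the 54 genes in 1 library, as the log2 of its CPM over the control mean, with a black bar at the median over genes. Control libraries (con, grey) lie around 0, and the medians of knockdown libraries (KD, blue) A, B and C are −0.05, −0.26 and −0.15.

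The promoters of respiratory genes are known for sites of NRF1 (nuclear respiratory factor 1) and of ETS factors such as GABP. The RefSeq promoter table (GRCh38.p14) held 44 of the 54 genes. In the 250 bases before any listed start, the NRF1 core GCGCATGC or its reverse complement GCATGCGC stood at 11 of these 44 (25.0%), compared with 5.28% of the 12223 tested genes in the table. The ETS letters CCGGAAG or CTTCCGG stood at 19 of 44 (43.2%), compared with 17.6%. NRF1 letters were present at 4 of 13 genes that fell, 1 of 2 that rose and 6 of 29 that did not pass, and ETS letters at 5 of 13, 0 of 2 and 14 of 29. The windows around the NRF1 letters of the 5 called genes are shown because they place genes that moved in opposite directions beside each other. Capitals mark 1 match to the NRF1 letters in each window, and each is read 5′ to 3′ on the strand of its gene.
CYCS (fell): atgctcgccaGCATGCGCgcgcaggtcc
SDHD (fell): ctgtgtttgcGCATGCGCgacgggtgtg
SDHAF2 (fell): gccacttccgGCATGCGCagggacgcac
COX5B (fell): gcagagctggGCATGCGCaatttccgcc
ATP5MC2 (rose): cccgggtcacGCATGCGCtgagccttcc
They lie at chr7:25125412-25125439 (minus strand), chr11:112086755-112086782 (plus), chr11:61430018-61430045 (plus), chr2:97645916-97645943 (plus) and chr12:53676106-53676133 (minus) in GRCh38.p14. The 8 capital letters are the same in all 5, and the flanking bases differ. In SDHD the gc just before the capitals also completes GCGCATGC, which overlaps them. No binding was measured here, and a match of letters is not a site.

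In complex II, 2 of the 8 genes fell, 0 rose and 6 did not pass, with a median of −0.01. The share that fell, 25%, is not far from the 16.9% of all tested genes for so few members. SDHD (ENSG00000204370, chromosome 11, 112086773 to 112120013 in GRCh38) encodes the small membrane anchor that, with SDHC, holds the heme and the coenzyme Q site. SDHD measured 55.4, 61.9 and 61.9 CPM in controls A, B and C, compared with 44.6, 39.6 and 43.9 CPM after knockdown. Every knockdown library lay below every control, and the fall was 28.5% (−0.48 on the log2 scale, SE 0.08, edgeR adjusted p = 0.000742).

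The other 3 SDH subunits did not pass the test. SDHA, the flavoprotein that oxidises succinate, stood at 385, 371 and 400.2 CPM in the controls and 399.7, 359.7 and 362 CPM in the knockdown libraries. SDHB, the iron-sulfur subunit, stood at 67.2, 72.3 and 73.4 CPM against 78.6, 65.1 and 69.7 CPM. SDHC, the other anchor subunit, stood at 54.7, 60.9 and 56.1 CPM against 59.0, 51.7 and 57.6 CPM. The groups overlapped for all 3, with log2 fold changes of −0.04, 0.0037 and −0.03 (SE 0.08 each). SDHA shares sequence with pseudogenes, and the counts in 4 separate pseudogene rows came to 5.39% of the count in its own row. Adding them to SDHA did not bring it past the threshold.

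Among the assembly factors of complex II, SDHAF2, which attaches the flavin cofactor to SDHA, fell from 28.4, 30.4 and 29.7 CPM to 21.7, 19.5 and 24.0 CPM. That is 26.4% lower (−0.44, SE 0.09, edgeR adjusted p = 0.00214), with no overlap between the groups. SDHAF4, which binds the flavinylated subunit, was at 7.64, 8.97 and 8.30 CPM in the controls and at 10.7, 8.91 and 9.54 CPM in the knockdown libraries (0.23, SE 0.10, edgeR adjusted p = 0.103). SDHAF1, an iron-sulfur insertion factor, had 8.76, 8.54 and 8.69 CPM against 10.03, 8.79 and 8.63 CPM, a log2 fold change of 0.08. SDHAF3 stood at 0.03. SDHD overlaps TIMM8B on the opposite strand, and both SDHD and SDHAF2 overlap an unnamed locus on their own strand. No source used here says whether reads were counted by strand, so these counts are less certain.

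CYCS, which encodes cytochrome c, had the largest fall of the 54 genes. Cytochrome c ferries single electrons from complex III to complex IV and triggers apoptosome formation when it leaves the mitochondrion. The gene (ENSG00000172115) spans 25120091 to 25125361 on chromosome 7, minus strand. CYCS measured 259, 289.6 and 310.0 CPM in controls A, B and C, compared with 167, 141 and 179 CPM after knockdown. The highest knockdown library thus stood well below the lowest control, and CYCS was 43.4% lower (−0.82, SE 0.10, edgeR adjusted p = 0.000118). The exons of CYCS overlap no other annotated gene, and the counts in its 41 separate pseudogene rows came to 0.028% of the count in its own row. CYC1, cytochrome c1, the complex III subunit that reduces cytochrome c, was at 388, 378 and 409 CPM against 368, 309 and 369 CPM (−0.17, SE 0.09, edgeR adjusted p = 0.168). Per length, the ratio of CYCS to CYC1 in the deposited FPKM values was 0.196, 0.275 and 0.259 in the controls and 0.147, 0.160 and 0.173 in the knockdown libraries.

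Of the 9 structural subunits of complex III, 2 fell (22.2%, close to the 16.9% of all tested genes), 0 rose and 7 did not pass. UQCRFS1, the Rieske iron-sulfur protein that takes the first electron from coenzyme Q, fell from 140.4, 145 and 148 CPM to 116, 95.2 and 116 CPM (−0.40, SE 0.09, edgeR adjusted p = 0.00374). UQCRB, a small subunit near the coenzyme Q site, fell from 178, 186 and 183 CPM to 159.7, 122 and 121 CPM (−0.44, SE 0.10, edgeR adjusted p = 0.00531). Neither gene had overlapping groups, although knockdown library A stood closer to the controls than B and C for UQCRB. UQCRQ, another small subunit, had 88.5, 99.2 and 84.1 CPM against 85.2, 68.9 and 82.4 CPM, with overlapping groups (−0.20, edgeR adjusted p = 0.116). The core proteins UQCRC1 and UQCRC2 stood at −0.12 and −0.16, UQCR11 at −0.11, UQCR10 at −0.07 and the hinge protein UQCRH at 0.13. UQCRB and UQCRFS1 overlap unnamed loci on the opposite strand, and the separate row of the pseudogene UQCRFS1P1 held a count equal to 2.81% of that of UQCRFS1.

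**Figure D3:**
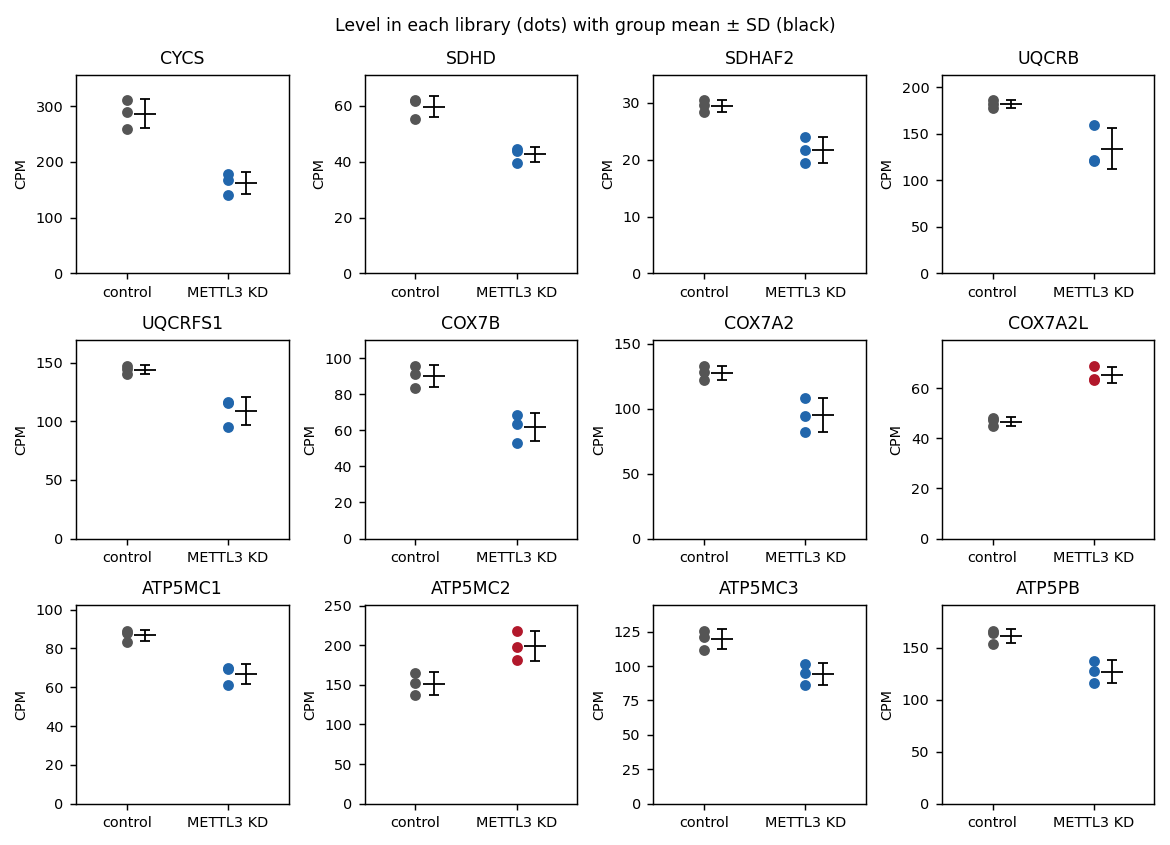
CPM of 12 genes in each library (dots; grey for control, blue where the gene fell and red where it rose), with the group mean and SD in black (n = 3 each) and axes that start at 0. In these 12 genes no knockdown library lies within the range of the controls.

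Most cytochrome oxidase subunits fell. Of 10 subunits, 6 fell (60%, where 16.9% of all tested genes fell), 0 rose and 4 did not pass, with a median of −0.26. COX7B, a small subunit of the enzyme, went from 83.5, 95.8 and 91.03 CPM to 68.3, 53.2 and 63.5 CPM, which is 31.6% lower (−0.55, SE 0.10, edgeR adjusted p = 0.000999). COX7A2, the widely expressed isoform of subunit VIIa, went from 122, 133 and 128 CPM to 109, 82.3 and 94.4 CPM (−0.43, SE 0.10, edgeR adjusted p = 0.00452). COX5A went from 161, 159 and 163 CPM to 142, 113 and 128 CPM (−0.33, SE 0.09, edgeR adjusted p = 0.0119). In each of these the groups were separate and knockdown library B was the lowest.

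COX6B1 (−0.29), COX6C (−0.26) and COX5B (−0.26) fell as well. The 4 subunits that did not pass were COX4I1, the largest nuclear subunit (−0.16), COX8A (−0.05), COX6A1 (−0.03) and COX7C (0.15). The calls of COX6B1, COX6C and COX5B rest on few libraries. COX5B was past the threshold in 1, COX6C in 2 and COX6B1 in 3 of the 6 fits that left out 1 library. Without a control library the number of complex IV genes called was 5 (without A or C) or 4 (without B) in place of 9. Without knockdown library B it was 3. Fewer genes were called in all as well. The number was 5373 without control A, 4653 without C, 4639 without B and 4012 without knockdown B, in place of 6270.

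COX7A2L was the complex IV gene that rose. It encodes SCAF1, a relative of subunit VIIa that joins complex III to complex IV in respiratory supercomplexes. The gene (ENSG00000115944) spans 42333546 to 42425088 on chromosome 2, minus strand, and its exons overlap no other annotated gene. Its level was 47.4, 47.9 and 44.8 CPM in the controls and 69.0, 63.3 and 63.6 CPM in the knockdown libraries. All 3 knockdown libraries were above all 3 controls, by 39.8% in the fit (0.48, SE 0.07, edgeR adjusted p = 0.000451). In the FPKM values, which are scaled to length, COX7A2L stood far below COX7A2. The ratio of COX7A2L to COX7A2 was 0.0443, 0.0514 and 0.0510 in the controls and 0.0855, 0.101 and 0.0944 in the knockdown libraries, so the order of the genes did not change while the gap between them narrowed.

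Of the 9 assembly factors of complex IV, 2 fell (22.2%, close to the 16.9% of all tested genes) and 7 did not pass. Both that fell, SCO1 (−0.24, edgeR adjusted p = 0.0264) and SCO2 (−0.25, edgeR adjusted p = 0.0476), are copper chaperones that load the CuA centre of subunit 2. Neither call is firm. SCO2 kept its call in 0 and SCO1 in 1 of the 6 fits that left out 1 library, and SCO2 also lost its call with DESeq2 and with limma-voom. On its own strand SCO2 (ENSG00000284194) overlaps exons of TYMP and of another annotated entry also named SCO2, so its counts are less certain. The other copper factors, COX17 (−0.18) and COX11 (−0.06), did not pass, nor did COX10 (−0.02) and COX15 (−0.03), which make heme A. COX14 (−0.19), COX20 (−0.15) and SURF1 (0.0020), which act at early steps of assembly, did not pass either.

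In ATP synthase, 5 of 16 genes fell (31.2%, where 16.9% of all tested genes fell), 1 rose and 10 did not pass. The genes of the c-ring, the rotor that turns as protons cross the membrane, moved in opposite directions. The ring is encoded by ATP5MC1, ATP5MC2 and ATP5MC3, whose different import signals are removed to leave the same mature protein. ATP5MC1 went from 83.3, 87.8 and 89.0 CPM to 69.5, 60.9 and 69.7 CPM (−0.38, SE 0.08, edgeR adjusted p = 0.00285). ATP5MC3 went from 111, 121 and 126 CPM to 102, 86.0 and 95.0 CPM (−0.34, SE 0.08, edgeR adjusted p = 0.00732). ATP5MC2 went the other way, from 165, 152 and 137 CPM to 218, 198 and 181 CPM (0.39, SE 0.09, edgeR adjusted p = 0.0060). The groups did not overlap for any of the 3 genes.

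Per length, ATP5MC2 made up 49.5%, 46.0% and 43.1% of the summed FPKM of the c-ring genes in controls A, B and C and 60.3%, 61.1% and 55.8% in the knockdown libraries. ATP5MC1 went from 35.8% ± 1.29 to 27.3% ± 1.94 and ATP5MC3 from 17.9% ± 2.04 to 13.6% ± 0.94 (SD, n = 3 each). The sum of the 3 was 925, 942 and 928 FPKM in the controls and 932, 851 and 875 FPKM in the knockdown libraries, so the groups overlapped for the sum and not for the shares. ATP5MC2 overlaps an unnamed locus on its own strand and ATP5MC3 one on the opposite strand and a small RNA on its own. The 4 pseudogene rows of ATP5MC2 held 0 counts.

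**Figure D4:**
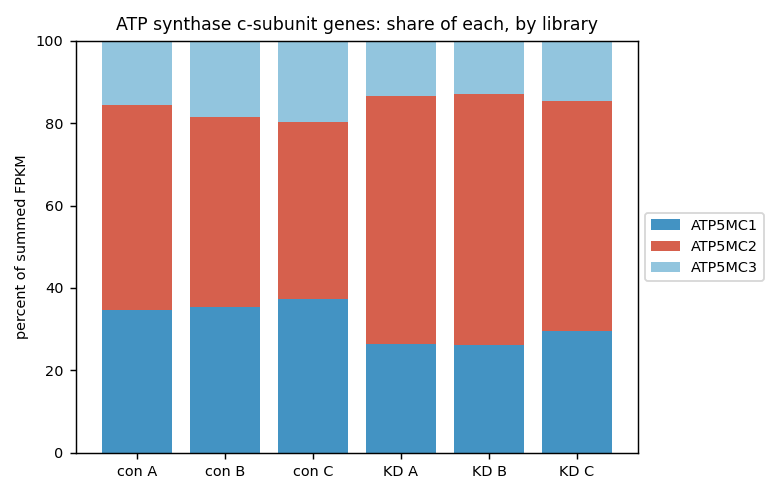
Share of each c-ring gene in the summed FPKM of the 3, as a percentage, in control (con) and knockdown (KD) libraries A to C. The ATP5MC2 band runs from 43.1% to 49.5% in the controls and from 55.8% to 61.1% in the knockdown libraries.

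Of the F1 head, which carries out the catalysis, 0 of 5 genes passed, and their values lay close together. ATP5F1A stood at −0.16, ATP5F1B at −0.14, ATP5F1C at −0.17, ATP5F1D at −0.21 and ATP5F1E at −0.20. ATP5F1B, the catalytic beta subunit and the most abundant of the 54 by CPM, had 560.0, 584 and 616 CPM in the controls and 547, 498 and 548 CPM in the knockdown libraries. In the peripheral stalk, which holds the head still, ATP5PB fell from 153, 166 and 164 CPM to 128, 116 and 138 CPM (−0.34, SE 0.08, edgeR adjusted p = 0.00669), whereas ATP5PD (−0.14), ATP5PO (−0.10) and ATP5PF (−0.10) did not pass. Of the small membrane subunits, ATP5MF (−0.33) and ATP5MG (−0.30) fell and ATP5ME stood just short of the threshold (−0.25, edgeR adjusted p = 0.0545). ATP5IF1, the inhibitor that stops the enzyme from running backwards, was at 183, 169 and 177 CPM against 201, 159.9 and 161 CPM, with overlapping groups (−0.02). ATP5PB overlaps WDR77 on the opposite strand and ATP5MF overlaps PTCD1 on its own strand.

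How the F1 head is read depends on the scaling. With scaling by library size alone, which moves the median of all genes to −0.11, 32 of the 54 genes fell and 2 rose, and all 5 F1 genes and the core proteins of complex III were among the 14 members that gained a call. Of the 18740 tested genes, 4727 fell and 1985 rose with that scaling, compared with 3171 and 3099 with TMM. The share of higher calls among all called genes went from 49.4% to 29.6%. The values of ATP5MC2 and COX7A2L were above 0 in all 18 alternatives. COX7A2L lost its call in 1 of them and ATP5MC2 in 2, all 3 cases being limma on FPKM values.

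The mitochondrially encoded partners of complexes III to V rose in all 6 cases. MT-CYB, the cytochrome b of complex III, rose by 0.87 (SE 0.09). The mitochondrially encoded subunits of complex IV, MT-CO1 (0.92, SE 0.11), MT-CO2 (0.99, SE 0.11) and MT-CO3 (1.00, SE 0.12), rose by similar amounts. MT-ATP6, the proton channel of complex V, rose from 1815, 1692 and 1798 CPM to 4281, 3988 and 5149.7 CPM (1.34, SE 0.11), and MT-ATP8, which overlaps it, by 1.49 (SE 0.16). The mRNAs of the mitochondrial genome took 3.17% ± 0.19 of all counts in the controls and 6.09% ± 0.39 in the knockdown libraries (SD, n = 3 each). With these transcripts left out of the totals and the fit, 18 members again fell and 2 rose.

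Summed over the nuclear subunits of complexes III, IV and V, all knockdown libraries lay below all controls in each of the 3. The complex II subunit sums overlapped, at 562, 566 and 592 CPM in the controls and 582, 516 and 533 CPM in the knockdown libraries. For complex IV the sums were 1612, 1635 and 1591 CPM in the controls and 1538, 1263 and 1387 CPM in the knockdown libraries. MT-CO1 to MT-CO3 together stood at 12.05, 10.8 and 9.55 times the nuclear complex IV sum in the controls and at 22.0, 26.8 and 24.5 times in the knockdown libraries. The ratio of MT-CYB to the nuclear subunits went from 0.969 ± 0.096 to 2.01 ± 0.17 for complex III, and that of MT-ATP6 with MT-ATP8 to theirs from 0.731 ± 0.040 to 2.08 ± 0.29 for complex V (SD, n = 3 each). These ratios compare libraries with each other and are not ratios of molecules, since counts also grow with transcript length.

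**Figure D5:**
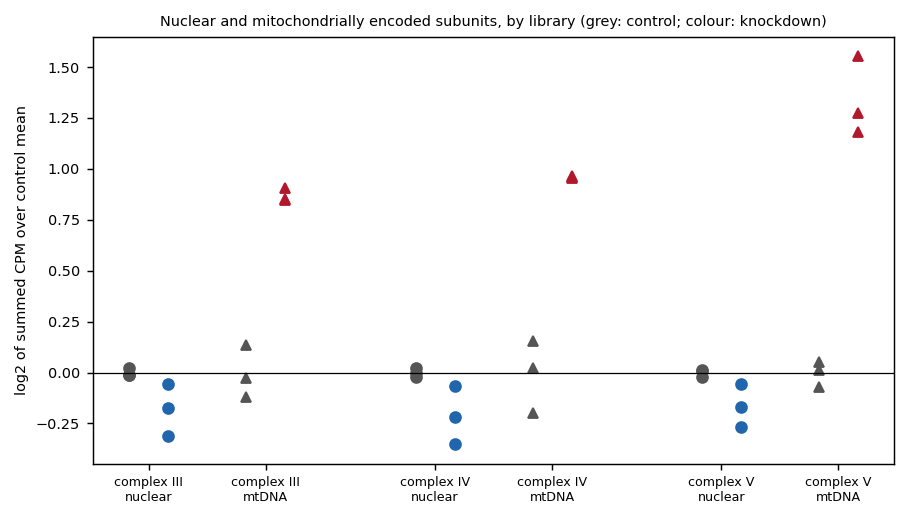
Summed CPM of nuclear (circles) and mitochondrially encoded (triangles) subunits of complexes III, IV and V in each library, as log2 over the control mean (grey for control, colour for knockdown). In each complex the 3 knockdown circles lie below the control circles and the 3 knockdown triangles lie above the control triangles.

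The remaining nuclear genes of the pathway were read from lists written down beside the members. Their counts stand beside 16.9% of all tested genes that fell and 16.5% that rose, and most of the lists are short. Of 37 nuclear subunits of complex I, 18 fell, NDUFS5 rose (0.34) and 18 did not pass (median −0.22). Among them NDUFS6 (−0.58), NDUFA9 (−0.54) and NDUFB3 (−0.59) had the smallest p-values. Further factors of complex III fell in 3 of 9 cases and rose in 0 (median −0.13), with the assembly factor UQCC1 at −0.57, UQCC4 (listed as C16orf91) at −0.51 and BCS1L, the translocase of the Rieske protein, at −0.26. Further factors of complex IV fell in 9 of 19 cases and rose in 0 (median −0.27), with COA7 at −0.51, HIGD1A at −0.47 and TMEM177 at −0.39. Of 8 further complex V genes, 3 fell, among them ATP5MK (−0.47) and TMEM242 (−0.46) with ATPAF2, an F1 chaperone (−0.33), while ATPAF1, the chaperone of the beta subunit, rose (0.26).

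Coenzyme Q synthesis, which supplies the carrier that complexes II and III share, had 2 of 11 genes lower and 2 higher (median 0.05), shares close to the 16.9% and 16.5% of all tested genes. PDSS1, a subunit of the synthase of the isoprenoid tail, went from 6.58, 6.75 and 6.46 CPM to 3.50, 3.28 and 3.79 CPM (−0.90, SE 0.11, edgeR adjusted p = 9.97e-05), and its partner PDSS2 stood at −0.28. COQ7, a hydroxylase of the ring, rose (0.31), as did COQ2 (0.32).

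Of 14 regulators of respiratory genes, 9 fell, 0 rose and 5 did not pass (median −0.25), where 16.9% of all tested genes fell and 16.5% rose. TFB2M, a transcription factor of the mitochondrial genome, fell from 38.4, 41.5 and 43.9 CPM to 27.5, 24.0 and 30.6 CPM (−0.59, SE 0.09, edgeR adjusted p = 0.000552). ESRRA, a nuclear receptor that drives respiratory genes, fell as well (−0.40, SE 0.08), and so did PPARGC1B, its coactivator (−0.47, SE 0.11). NRF1 itself stood at 0.07 and did not pass. Of the GABP genes, GABPB1 fell (−0.22, edgeR adjusted p = 0.0395) and GABPA did not pass (−0.19, edgeR adjusted p = 0.0858).

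The isoforms of complex IV that replace the ubiquitous ones in muscle, lung or testis were nearly silent. COX4I2 and COX7B2 had 0 counts in all 6 libraries, which does not exclude a very low level. COX6A2, COX7A1 and COX8C had at most 3 counts, and COX6B2 at most 27. NDUFA4L2, a relative of the complex IV subunit NDUFA4 that is known as a hypoxia target, reached at most 148 counts and did not pass (0.23).

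As transcripts the members are short. The principal coding transcript had a median of 1254 nt and 4 exons in the 54 genes, against 3106.5 nt and 9 exons in 13816 tested coding genes. For the 3′ untranslated region, the median length was 791.5 nt in the 18 genes that fell. It was 337.5 nt in the 34 that did not pass and 1025 nt in all tested coding genes. The 2 that rose were unlike each other, with 146 nt in ATP5MC2 and 1884 nt in COX7A2L. GGACT, a core of the letters that METTL3 methylates, was absent from 20.4% of the members' transcripts and from 8.74% of those of all tested coding genes. Per length the letters were about as frequent, with a median of 1.00 per kilobase in the members and 0.946 in all tested coding genes. Across the 54 genes Spearman's rho with the log2 fold change was −0.12 for GGACT per kilobase and −0.07 for transcript length. It was −0.17 for the length of the 3′ untranslated region, 0.26 for GC content and −0.19 for the mean CPM. Across all tested coding genes the first 4 of these were 0.01, −0.02, −0.02 and 0.06, and for the mean CPM rho was −0.05 across all tested genes. These are descriptions across genes that share libraries, and methylation was not measured in these files.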

How the data were processed

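RNA of 786-O cells was sequenced in 6 libraries, 3 per group. The authors deposited whole-number counts and FPKM values (scaled to transcript length and library total) for 61860 Ensembl genes. STAR 2.7.10b, Salmon and GRCh38 appear in the submitters' processing notes without a role for each. The sources used here give neither annotation release nor strand setting. Columns named for the control shRNA were the control group. The 3 others, whose name holds a number that no label explains, were taken as the METTL3 group by elimination, and METTL3 was checked. Column letters are not tied to the labels' replicate numbers.

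Counts were filtered with filterByExpr, scaled by TMM and tested with edgeR 4.0.16 (limma 3.58.1, R 4.3.3) by its quasi-likelihood test over 18740 genes (Benjamini-Hochberg adjusted p under 0.05), and the script was tested on simulated counts. Standard errors come from the F statistic. Per-length levels use the deposited FPKM. Between libraries of the same group, counts scattered beyond sampling noise (chi-square over degrees of freedom 16.5 to 62.8). Gene models came from GENCODE 29 on GRCh38 (58308 identifiers matched), promoters from RefSeq. Exons of 30 members overlap another gene. Alternatives were DESeq2-type and library size scaling, DESeq2 1.42.0, limma-voom, 2 other count filters, limma on FPKM (pseudocount 1 or 0.1, genes of at least 0.5 FPKM in 3 libraries; pseudocount 1 also unfiltered), a block, mitochondrial transcripts left out, pseudogene counts added to parents, and each library left out. Members and lists were chosen with earlier results of these data known. By a rule for naming, up to 4 members per complex with the smallest p, the SDH subunits, the c-ring genes and the members that rose are given by library, and up to 3 genes of each other list by value. CYC1, ATP5F1B, ATP5IF1 and further genes of the lists (ATPAF1, COQ2, NDUFS5, NRF1, GABPA, GABPB1) were named after their values were seen.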

Additional observations from a re-analysis of the deposited data

How the results depend on the processing

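Each member had at least 631 counts in every library, and each group had 3 libraries; how far depth or group size limited the calls was not tested. Of the 20 called members, 8 kept their call in all 18 alternatives: SDHD, SDHAF2, UQCRB, UQCRFS1, CYCS, COX7A2, COX7B and ATP5MC1. No member that was called in any of the fits changed sign against its value in the report. With library size scaling, 32 members fell, 7 of complex III and 14 of complex V were called, and the median of the members was −0.27. The median of all genes moved to −0.11 there, and 4727 genes fell in all. Limma on log2(FPKM + 1) called 6 members of complex III and 11 of complex V, with a median of −0.28. With log2(FPKM + 0.1), 1 member rose and the median was −0.28. Limma on log2(FPKM + 1) without a filter called 3609 genes, 0 members higher and 3 of complex V, with a median of −0.28. In these FPKM fits the median of all genes was lower too, at −0.095, −0.116 and −0.058 in the same order. The cause of these shifts was not tested. Leaving out each library in turn gave 4012 to 6589 genes called, 10 to 23 members lower, 3 to 9 called in complex IV, 4 to 10 in complex V, and medians from −0.24 to −0.10. Without knockdown library B, 10 members fell and the median was −0.10, and without A, 23 fell. Over all genes, 1959 fell without B and 2506 without A, compared with 3171 with all libraries. The column letter as a replicate block gave 20 members lower and 2 higher, and 6985 genes in all. Same-lettered libraries did not deviate together in all pairs (correlations of −0.02, −0.05 and 0.17 for A, B and C), so the letters were not taken to pair libraries. METTL3 stayed between −1.91 and −1.63 in all alternatives.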
